A study of Mus musculus with 32 samples.

Results

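The transcriptome of the monocyte graft was compared with that of its ileal progeny 12 days after transfer. The comparison holds 7 of the 32 samples of the series, which are the 3 libraries of the graft and the 4 libraries of graft-derived macrophages from the ileum on day 12. They were chosen by their labels, without use of any measured value. Monocytes of the bone marrow (BM) of Cx3cr1GFP/+ mice, which also carry the allotypic marker CD45.1, were sorted as CD117- CD11b+ CD115+ Ly6C+ GFPint cells and injected into the circulation. The recipients were [CD11c-DTR > WT] BM chimeras, in which the diphtheria toxin (DTx) receptor under the promoter of Itgax, the gene of CD11c, makes CD11c-expressing cells sensitive to the toxin. They received DTx at 18 ng per g on both days before the transfer and at 9 ng per g every other day afterwards, while the graft was not treated. Graft-derived cells were isolated from the ileum by CD45.1 and GFP, and the labels give as their gate viable (DAPI-) CD45+ cells with CD11b, CD64 and MHCII and without Ly6C, which the study describes for resident macrophages. The labels give the strain C57BL/6J and the genotype Tg[Itgax-DTR/GFP]57Lan, on a B6.FVB line, to every one of these samples, the graft included. They name blood as the organ of the graft and CD45+CD11b+CD115+Ly6C+/- as its selection marker. Host cells outside the CD11c-expressing compartment remained in the recipients, and the recipients were 7 to 10 weeks old when they were irradiated and given BM. The age of the donors is not given in the sources used here. By the study's methods, gut tissue was incubated warm, first to strip mucus and epithelium and then with collagenase. BM was flushed cold, and no digestion is described for it. Handling thus differed along with the groups, and its part in the differences cannot be told apart.

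Classical, Ly6C+ monocytes leave the BM with a store of granule and migration genes, enter the gut wall from the blood and differentiate there into resident macrophages. Gut macrophages take up dead epithelial cells and bacteria, present antigen on MHC class II and are held in a restrained state by signals such as IL-10 and TGF-β. C1qa encodes a chain of the complement starter C1q, Axl a receptor for dying cells, and Timd4 the phosphatidylserine receptor TIM-4, which is carried by long-lived gut macrophages.

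RNA was read at the 3′ end of transcripts by a derivative of MARS-seq, a protocol for small numbers of cells. Reads counted on genes were 2447862 to 3639328 per graft library and 1586531 to 3381891 per ileal library, and 12105 to 12384 genes were detected in the graft against 14601 to 15560.0 in the ileum. Levels are given as normalized reads, which are counts per 10000000 mapped reads, and a count of 3 corresponds to 5.81 to 8.42 normalized reads in the graft and 4.44 to 11.3 in the ileum. This floor covers counting error alone. Dates in the titles place the libraries in 3 transfer experiments. Values per library are listed in the order of experiments 1, 2 and 3 for the graft, and of experiment 1 (replicate 2), experiment 2 (replicates 1 and 3) and experiment 3 (replicate 4) for the ileum. The sources do not say that replicates were separate animals, so p-values measure the spread between these samples. Differences are log2 fold changes, ileum minus graft, ± their standard error from edgeR's quasi-likelihood test, with p adjusted by Benjamini and Hochberg over 11842 genes. A gene is said to have risen or fallen where this adjusted p lay below 0.05, and means are given ± the SD of 3 graft or 4 ileal libraries.

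Ileal replicate 1 stood apart from the other ileal libraries. Its summed level of the macrophage identity genes was 289085 normalized reads, against 68799, 110698 and 149823 in replicates 2, 3 and 4. It also had the lowest sums of epithelial genes (29504, against 68637, 75162 and 49282) and smooth muscle genes (586, against 8934, 8091 and 8406). Without it 4107 genes were higher and 2414 lower in the ileum, against 4250 (35.9% of those tested) and 2369 (20.0%) with it.

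The marker genes C1qa, Axl and Timd4 were higher in every ileal library than in any graft library. C1qa was read at 14.5, 39.3 and 36.8 in the graft and 13729.6, 34542, 12651 and 13377 in the ileum (normalized reads). No ileal library came near the graft, and replicate 1 was above the other ileal libraries. The difference was 9.75 ± 0.97 (adjusted p = 1.8e-08), and 9.22 without replicate 1. Axl had 124, 104 and 196 in the graft and 601, 1286, 616 and 1025 in the ileum (normalized reads), again with no overlap. It rose by 3.15 ± 0.41 (adjusted p = 9.1e-07), and by 2.89 without replicate 1. The study describes engrafted macrophages, set beside resident ones, as lacking Axl. Resident macrophages are not among these samples. For Timd4 the normalized reads were 0 in every graft library and 75.2, 263, 31.2 and 102 in the ileum. Its level in the ileum was at least 16.4-fold higher than the floor of 3 counts per graft library (adjusted p = 4.3e-05). All of the C1q chains behaved alike, as C1qb rose by 8.98 ± 0.94 (adjusted p = 4e-08) and C1qc by 9.11 ± 0.90 (adjusted p = 1.5e-08).

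Transcripts of the proteins used in the sort were read next. The labels place MHCII and Ly6C in the gate of the ileal cells, while the study describes their isolation by CD45.1 and GFP, so whether MHC class II was selected cannot be told from the sources. Ly6C was selected in the graft. H2-Ab1, the β chain of I-A, had 547, 1258 and 2157 in the graft and 11565, 60988, 22237 and 32419 in the ileum (normalized reads) without overlap, and a difference of 5.13 ± 0.81 (adjusted p = 1.2e-05). Ly6c2, the gene of the monocyte antigen Ly6C, was at 23435, 26717 and 20738 in the graft and 552, 285, 416 and 510.1 in the ileum (normalized reads), likewise without overlap, and fell by 5.27 ± 0.86 (adjusted p = 1.6e-05). Its neighbour Ly6c1, from which reads can be shared with Ly6c2, had 4153, 4168 and 2625 in the graft and 1748, 969, 2288 and 1306 in the ileum and a difference that did not pass (-0.76 ± 0.66, adjusted p = 0.34). Itgam, the gene of CD11b, selected in the graft and, by the labels, in the ileum, fell by 1.99 ± 0.58 (adjusted p = 0.0053). With the libraries scaled to pan-leukocyte genes, a setting described further on, it was -0.25 (adjusted p = 0.61). Itgax, the gene of CD11c, rose from 12.11, 5.61 and 23.3 to 1007, 3387, 632 and 519 normalized reads, with no overlap and a difference of 7.06 ± 1.10 (adjusted p = 9.4e-06). Kit, the gene of CD117 and a marker of progenitors and mast cells, was unread in the graft and at 52.6, 81.5, 52.0 and 26.6 normalized reads in the ileum.

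Several genes shared by monocytes and macrophages did not pass the test. Csf1r, the receptor that keeps macrophages alive, had 5207, 4000.0 and 5784 in the graft and 3725, 17974, 4371 and 4600.1 in the ileum (normalized reads), and its difference was 1.13 ± 0.61 (adjusted p = 0.12). The groups overlapped, and replicate 1 alone lay above the graft. Cx3cr1, the fractalkine receptor whose locus carries the GFP of the donors, had 877, 1156 and 996 in the graft and 849, 1571, 1118 and 1607 in the ileum (normalized reads), a difference of 0.86 ± 0.53 (adjusted p = 0.17). Fcgr1, the gene of CD64, had a difference of -0.07 ± 0.56 (adjusted p = 0.93), and Adgre1, the gene of F4/80, of -0.07 ± 0.49 (adjusted p = 0.92). The groups overlapped for both genes, and their small differences change sign under other settings, among them without ileal replicate 2 or 3. Ptprc, the gene of CD45, was lower in each ileal library than in any of the graft, at 3826, 5204 and 6089.8 in the graft and 1131, 3052, 905 and 1016 in the ileum (normalized reads), and its difference was -1.22 ± 0.55 (adjusted p = 0.066). Without replicate 1 the fall of Ptprc passed the test (-1.85, adjusted p = 0.0074). It also passed with the library totals (-1.72, adjusted p = 0.012) and with the transfer experiment as a block (-1.48, adjusted p = 0.01). Scaled to pan-leukocyte genes, the differences were Csf1r 2.69 (adjusted p = 5.4e-05), Cx3cr1 2.78 (adjusted p = 0.00011), Fcgr1 1.65 (adjusted p = 0.0036), Adgre1 1.73 (adjusted p = 0.0061) and Ptprc 0.46 (adjusted p = 0.37), so that Csf1r, Cx3cr1, Fcgr1 and Adgre1 passed as rises. Most genes did so under this scaling, with 9246 of 11842 higher and a median of 2.24. Fcgr1, Adgre1 and Ptprc lay below that median.

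**Figure D1:**
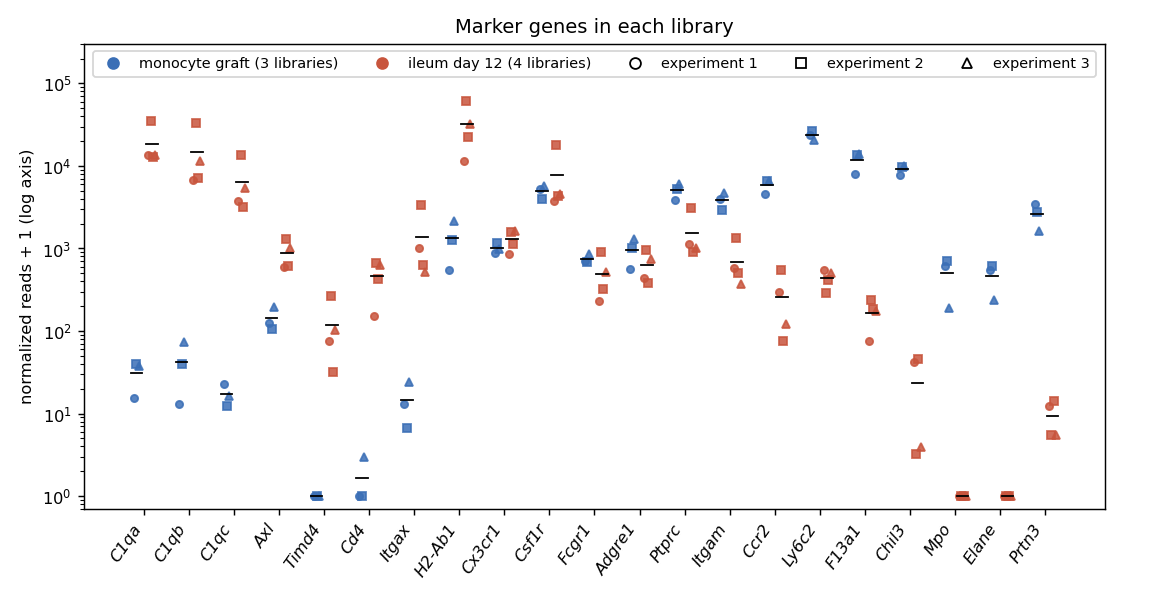
Normalized reads plus 1 (log axis) of 21 marker genes in the 3 graft and 4 ileum day 12 libraries, 1 point per library, with lines at the group means. C1qa, C1qb, C1qc, Axl, Timd4, Cd4, Itgax and H2-Ab1 are higher in every ileal library than in any graft library, Cx3cr1, Csf1r, Fcgr1 and Adgre1 overlap, and Ptprc, Itgam, Ccr2, Ly6c2, F13a1, Chil3, Mpo, Elane and Prtn3 are lower in every ileal library.

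Of the 11842 genes tested, 4250 (35.9%) were higher and 2369 (20.0%) lower in the ileum than in the graft. Libraries were scaled by TMM, the trimmed mean of M-values, which takes most genes to be at a like level. At least 2-fold were 3785 genes (32.0%) higher and 1553 (13.1%) lower. Scaled by the library totals in place of TMM, 3291 were higher and 3960 lower, so the share of higher genes among those called was 64.2% with TMM and 45.4% with the totals. The median log2 difference of all tested genes was 0.22 with TMM and -0.25 with the totals, and it was 2.24 after scaling to the summed counts of 25 pan-leukocyte genes, a list of genes that nearly all white blood cells use, a setting added after the data had been seen. Under this last scaling 9246 genes were higher and 128 lower. Counts of each gene list below with TMM are to be read beside 35.9% and 20.0%. Those with the library totals are to be read beside 3291 and 3960 of the 11842 genes. Those scaled to pan-leukocyte genes are to be read beside 9246 and 128, as most genes were higher under that scaling. Medians of a list are to be read beside the medians of all tested genes under the same scaling. In normalized reads, every ileal library lay above every graft library for 3359 genes (28.4%) and below for 4454 (37.6%). Normalized reads are counts per mapped read and are not scaled by TMM, unlike the calls. Of the mapped reads, at least 68.7% fell on genes in each graft library and at most 60.3% in each ileal library. The smaller share lowers normalized reads of all genes in the ileum. Statements on overlap, here and throughout, therefore lean towards lower levels in the ileum. Within each of the 3 experiments the direction was the same for 4073 of the 4250 higher and 2365 of the 2369 lower genes. These genes were called on the same libraries, so this agreement is not independent of the calls.

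**Figure D2:**
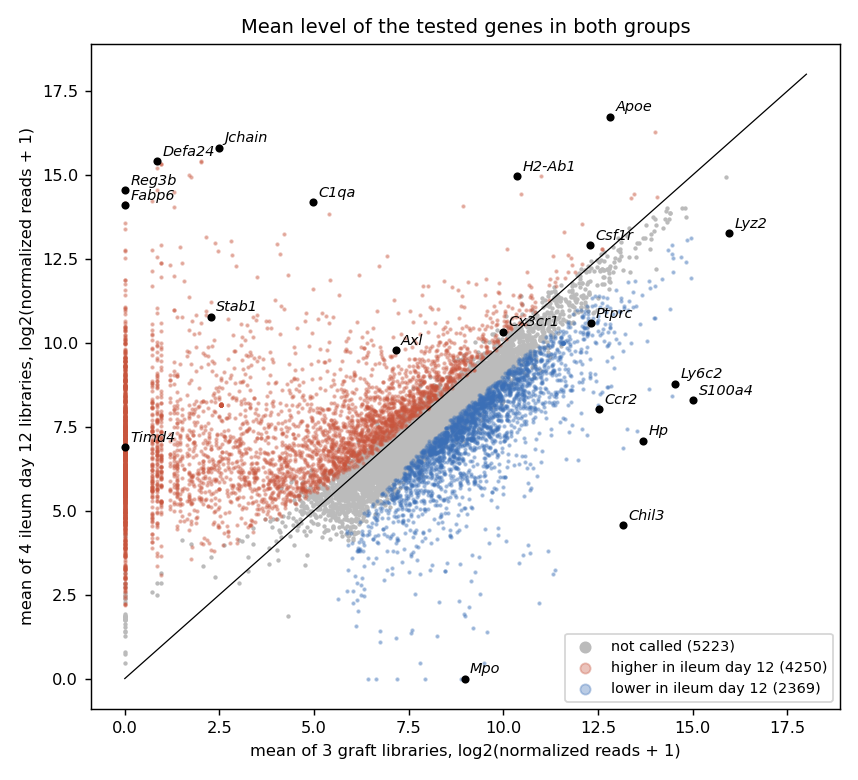
Mean of the 4 ileum day 12 libraries against the mean of the 3 graft libraries, each as log2(normalized reads + 1), for the 11842 tested genes, with genes called higher or lower in colour and the line of equality. Reg3b, Fabp6 and Defa24 lie at the upper left, Chil3 and Mpo near the bottom, Csf1r and Cx3cr1 near the line, and Ptprc below it.

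Genes of other cells of the gut wall were read in all 4 ileal libraries. The pan-leukocyte genes summed to 149697 to 159904 normalized reads in the graft and to 20137 to 66946 in the ileum. Intestinal epithelium genes summed to 240.3 to 283 in the graft and to 29504 to 75162 in the ileum, where all 25 tested were called higher. Epcam, an adhesion molecule of epithelia, had 2.42, 0 and 0 in the graft and 3011, 1046, 1939.6 and 1637 in the ileum (normalized reads), and Vil1, the gene of the microvillus protein villin, 0 in every graft library and 1793, 593, 1110.2 and 1139 in the ileum. The level of Vil1 was at least 162-fold higher. Fibroblast genes rose from 7.27 to 14.03 to 2235 to 10997 normalized reads in sum, with 11 of 11 called, and smooth muscle genes from 61.8 to 92.0 to 586 to 8934, with 8 of 8. Endothelial genes rose in 11 of 11, among them Pecam1 (3.84 ± 0.73, adjusted p = 0.00011), the gene of CD31. T cell genes, though few in reads, rose in 10 of 10 and summed to 561 to 1403 normalized reads.

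B and plasma cell genes summed to 249.8 to 286 normalized reads in the graft and to 21709 to 142428 in the ileum. Jchain, the joining chain of secreted antibodies, made up 96.4% of the ileal sum, with 2.42, 5.61 and 5.81 in the graft and 36472, 20036, 36219.8 and 138091 in the ileum (normalized reads). Replicate 4 was the highest for Jchain. Pax5, which defines B cells, was at 0 in all 7 libraries. So were the mast cell proteases Cpa3, Mcpt1, Mcpt2, Mcpt4 and Cma1. These sums stand beside every gene group below, and their part in the differences was not tested. In bulk libraries, fewer cells of a type and less RNA per cell cannot be told apart.

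**Figure D3:**
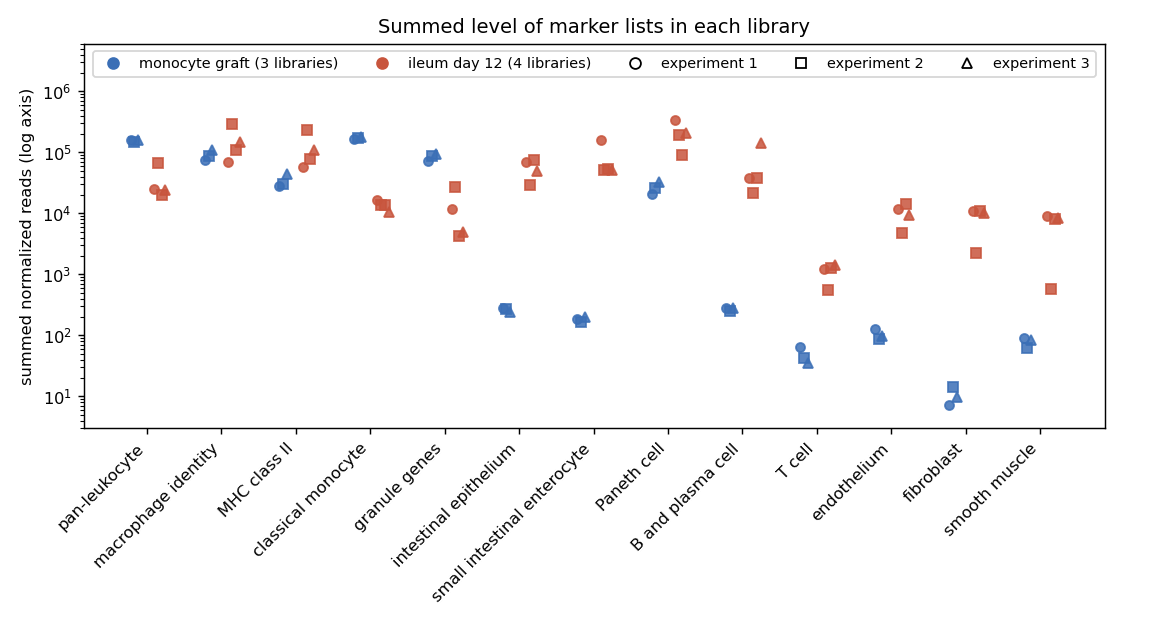
Summed normalized reads (log axis) of 13 marker lists in each library of the graft and of ileum day 12, 1 point per library. Pan-leukocyte, classical monocyte and granule genes are lower in every ileal library, and the lists of epithelium, enterocytes, Paneth, B and plasma cells, T cells, endothelium, fibroblasts and smooth muscle are higher.

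The 12 largest rises were genes of the epithelium of the small intestine. Reg3b, a bactericidal lectin of the gut epithelium, had 0 in every graft library and 65487, 18264, 3377 and 8639.8 in the ileum (normalized reads) and was at least 3341-fold higher (adjusted p = 4.2e-07). Fabp6, the bile acid carrier of ileal enterocytes, had 0 in every graft library and 20912, 12726, 22944 and 13644 in the ileum and was at least 2449.9-fold higher (adjusted p = 5.2e-06). The other 10 were genes of the α-defensin cluster on chromosome 8 (mm9, chr8:22234650-22845943), which hold antimicrobial peptides of Paneth cells. They were Defa31, Defa23, Defa24, Defa32, Defa33, Defa6, Defa17, Defa3, Defa30 and Gm14851. They lie at 7 positions that do not overlap, and the copies are so alike that reads may be shared, so single members are uncertain. Defa31 had 0 in every graft library and 38107, 14458, 6643 and 13834 in the ileum (normalized reads) and Defa24 had 2.42, 0 and 0 in the graft and 84092, 33106, 18493 and 39096 in the ileum. The 13 tested Paneth genes held 12 rises, and Lyz1, the gene not called, had 20628, 26282 and 33129 in the graft and 20608, 29464, 5210.3 and 11464 in the ileum (normalized reads). In the graft Lyz1 made up 99.97% of the Paneth sum, and reads of Lyz1 can be shared with Lyz2, the lysozyme of myeloid cells.

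The largest falls were led by genes of the granules of immature myeloid cells. Mpo, the gene of myeloperoxidase, had 615, 702 and 188 in the graft and 0 in every ileal library (normalized reads) and was at least 66.2-fold lower (adjusted p = 6.8e-05). Elane, the gene of neutrophil elastase, had 552, 615 and 234 in the graft and 0 in every ileal library and was at least 61.7-fold lower (adjusted p = 3.6e-05). Fcnb, the gene of ficolin B, had 293, 216 and 219 in the graft and 0 in every ileal library and was at least 32.0-fold lower. Ctsg, the gene of cathepsin G, had 947, 792 and 403 in the graft and 0, 0, 0 and 1.48 in the ileum (normalized reads). Prtn3, the gene of proteinase 3, had 3489.7, 2799 and 1645 in the graft and a mean of 8.31 ± 4.48 in the ileum, and fell by 7.92 ± 0.56 (adjusted p = 1.3e-10). Chil3, a chitinase-like protein of monocytes, had 7696, 9777 and 9905 in the graft and 41.3, 2.26, 44.2 and 2.96 in the ileum and fell by 8.38 ± 0.92 (adjusted p = 7.8e-08). In all of these the groups did not overlap. With DESeq2 in place of edgeR the adjusted p was 0.13 for Mpo, 0.13 for Elane and 0.1 for Kcnk12, with fitted log2 differences of -9.69, -9.59 and -7.79, which depend on how a group at or near 0 is treated. Serpinb10, AI839979, Galnt9, Kcnk12 and Adora2b also fell, with graft means of 751, 1973, 591, 221 and 499.9 normalized reads and ileal means of 1.59, 3.77, 1.87, 0.370 and 2.82. Of granule genes, 2 rose and 14 fell of the 16 tested, with a median log2 difference of -6.05 (-5.19 with genes at 0 in a group set to their bound). The rises were Serpinb1a (1.70 ± 0.39, adjusted p = 0.00068), an inhibitor of granule proteases, and Cst7 (2.64 ± 0.95, adjusted p = 0.022), an inhibitor of cathepsins. With an equal-variance test per gene Serpinb1a did not pass (1.08, adjusted p = 0.1). The rise of Cst7 was lost without ileal replicate 1 (1.44, adjusted p = 0.17) and without graft replicate 1 (2.59, adjusted p = 0.062) or 2 (2.33, adjusted p = 0.089).

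Promoters of 3 of these granule genes and of C1qc are shown because genes of both groups held a motif of PU.1, an ETS factor of the myeloid lineage. They are sequences of RefSeq on GRCm38.p6, 250 bases before to 50 after the start, given 5′ to 3′ along the gene. Capitals mark matches to GAGGAAGT, a PU.1-type site, and to TGCTGAC, the core of a MAF recognition element, both searched on either strand. On the opposite strand they read ACTTCCTC and GTCAGCA.
Mpo (chr11:87793534-87793833, forward strand): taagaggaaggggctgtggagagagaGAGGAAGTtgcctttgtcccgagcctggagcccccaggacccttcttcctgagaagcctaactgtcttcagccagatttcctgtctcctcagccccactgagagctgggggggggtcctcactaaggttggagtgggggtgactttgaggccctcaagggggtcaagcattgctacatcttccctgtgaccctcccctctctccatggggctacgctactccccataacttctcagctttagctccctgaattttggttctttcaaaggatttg
Elane (chr10:79886062-79886361, forward strand): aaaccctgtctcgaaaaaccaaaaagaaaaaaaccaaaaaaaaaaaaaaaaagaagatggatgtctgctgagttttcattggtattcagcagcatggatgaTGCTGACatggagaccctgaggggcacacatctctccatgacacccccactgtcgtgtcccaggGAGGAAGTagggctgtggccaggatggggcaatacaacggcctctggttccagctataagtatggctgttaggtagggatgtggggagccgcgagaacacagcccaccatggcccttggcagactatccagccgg
Prtn3 (chr10:79879417-79879716, forward strand): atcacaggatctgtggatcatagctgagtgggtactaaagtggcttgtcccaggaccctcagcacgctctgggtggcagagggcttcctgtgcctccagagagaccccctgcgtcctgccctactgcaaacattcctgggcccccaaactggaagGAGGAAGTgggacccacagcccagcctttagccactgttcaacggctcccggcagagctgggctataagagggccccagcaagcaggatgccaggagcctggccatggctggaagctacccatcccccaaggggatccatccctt
C1qc (chr4:136892865-136893164, reverse strand): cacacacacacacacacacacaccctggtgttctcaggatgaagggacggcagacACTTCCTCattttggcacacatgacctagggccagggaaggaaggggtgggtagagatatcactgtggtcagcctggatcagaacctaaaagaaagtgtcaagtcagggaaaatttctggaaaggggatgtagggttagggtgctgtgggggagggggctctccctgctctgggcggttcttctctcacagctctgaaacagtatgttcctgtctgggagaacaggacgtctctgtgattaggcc
Letters of GAGGAAGT occur in 1052 of 32851 RefSeq promoters (3.20%) and those of TGCTGAC in 1535 (4.67%). Among granule genes with a promoter in the table, 4 of 15 held the first (Mpo, Elane, Prtn3 and Mmp8) and 2 of 15 the second (Elane and Ctsg). Among classical monocyte genes 4 of 16 held the first (Ly6c2, F13a1, S100a4 and S100a8) and 1 of 16 the second (Cd177). Complement genes held the first in 1 of 16, C1qc, and the second in 2 of 16, while macrophage identity genes held the first in 2 of 17 (Pf4 and Selenop) and the second in 0 of 17. A match describes the letters of the window and nothing more.

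Of the classical monocyte genes, 1 rose and 16 fell of the 20 tested, with a median of -4.20. Ccr2, the receptor with which monocytes leave the BM, had 4611, 6535 and 6518 in the graft and 297, 546, 75.4 and 121 in the ileum (normalized reads). The groups did not overlap and the difference was -4.01 ± 0.67 (adjusted p = 2.1e-05). S100a4, a calcium-binding protein of migrating cells, had 37193, 31480.4 and 30573 in the graft and 395, 611, 138 and 97.6 in the ileum and fell by 6.27 ± 0.77 (adjusted p = 3.6e-07). F13a1, a coagulation factor subunit, fell by 5.63 ± 0.58 (adjusted p = 3.3e-08), and Fn1, the gene of fibronectin, by 5.60 ± 0.75 (adjusted p = 1.4e-06). Hp, the gene of the haemoglobin scavenger haptoglobin, fell by 6.22 ± 0.78 (adjusted p = 5.5e-07), and Emilin2 by 4.99 ± 0.36 (adjusted p = 1.8e-10). Vcan, a matrix proteoglycan, fell by 5.65 ± 0.59 (adjusted p = 3.7e-08). Thbs1, the gene of thrombospondin 1, was the rise (2.20 ± 0.48, adjusted p = 0.00044). Plac8 had 5899, 6046 and 5377 in the graft and 4247, 1075, 2452 and 2497 in the ileum (normalized reads) and did not pass (-0.72 ± 0.39, adjusted p = 0.12), except without ileal replicate 2 (-1.01, adjusted p = 0.04). Relative to pan-leukocyte reads the list went from 106 to 114 to 20.4 to 68.5 reads per 100 pan-leukocyte reads, without overlap.

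Cell cycle genes were lower across the list. None of the 44 tested rose and 42 of 44 (95.5%) fell, with a median of -2.35 against 0.22 for all genes. Mki67, a protein of dividing nuclei, had 3083, 2841 and 2244 in the graft and 624, 337, 304 and 207 in the ileum (normalized reads). Top2a, which untangles DNA in division, had 4846, 4662 and 3319 in the graft and 688, 385, 489 and 253 in the ileum. Neither gene overlapped between the groups, and they fell by 2.46 ± 0.35 (adjusted p = 3e-06) and 2.81 ± 0.36 (adjusted p = 6.9e-07). The cyclins Ccna2 and Ccnb2 fell by 2.47 ± 0.38 (adjusted p = 7.3e-06) and 2.35 ± 0.37 (adjusted p = 1.3e-05). Scaled to pan-leukocyte genes they were Mki67 -0.39 (adjusted p = 0.55), Top2a -0.70 (adjusted p = 0.28), Ccna2 -0.40 (adjusted p = 0.57) and Ccnb2 -0.29 (adjusted p = 0.69). So scaled, the median of the list was -0.29, and 1 gene rose and 4 fell. Per 100 pan-leukocyte reads the sum was 33.6, 36.1 and 27.3 in the graft and 39.1, 10.2, 43.7 and 20.1 in the ileum, with overlap.

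Macrophage identity genes rose in 15 of 23 (65.2%) and fell in 1, with a median of 2.33. Apoe, a lipid carrier, had 4836, 5572 and 11344 in the graft and 38269, 206046, 81292 and 109226 in the ileum (normalized reads), with every ileal library above the graft. It rose by 4.43 ± 0.71 (adjusted p = 1.4e-05) and made up 70.3% of the ileal sum of the list. Stab1, a scavenger receptor, had 0, 5.61 and 5.81 in the graft and 823, 1809, 1908 and 2493 in the ileum (normalized reads), and the difference was 9.21 ± 1.06 (adjusted p = 1.6e-07). Cd63, a tetraspanin of endosomes, rose by 7.87 ± 0.59 (adjusted p = 3.4e-10). Mrc1, the mannose receptor CD206, rose by 4.64 ± 0.61 (adjusted p = 9.6e-07), and Cd163, the receptor for haptoglobin and haemoglobin, by 4.58 ± 1.16 (adjusted p = 0.0018), though Cd163 did not pass an equal-variance test (1.73, adjusted p = 0.12). Lyve1, a hyaluronan receptor that lymphatic vessels also carry, was unread in the graft and at 173, 138, 590.2 and 284 normalized reads in the ileum. Pf4, a chemokine of platelets and some macrophages, rose by 9.62 ± 0.94 (adjusted p = 1.4e-08), and Selenop, a selenium carrier, by 1.96 ± 0.41 (adjusted p = 0.00027). Lyz2 was the fall (-2.18 ± 0.62, adjusted p = 0.0044), with 52893, 64735 and 73996 in the graft and 8689.5, 24816, 2288 and 3695 in the ileum (normalized reads), of which replicate 1 had the most in the ileum. With pan-leukocyte scaling Lyz2 was -0.74 (adjusted p = 0.2), and rises and falls in the list were 20 and 0. Cd68, a protein of endosomes, did not pass (-0.65 ± 0.49, adjusted p = 0.27), though it fell without replicate 1 (-1.21, adjusted p = 0.037).

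The sum of the list did not separate the groups, at 75439.9 to 108489 normalized reads in the graft and 68799 to 289085 in the ileum, and Lyz2 made up 70.2% of the graft's sum. Per 100 pan-leukocyte reads it was 47.4, 59.4 and 67.8 in the graft and 276, 432, 549.7 and 609.5 in the ileum, where all 4 libraries were above the graft.

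Genes of long-lived gut macrophages rose in 4 of 4 tested, which were Timd4, Cd4, C2 and Rusc2. Cd209f, the other gene of the list, did not reach the filter and was not tested. The study describes Cd209f, C2 and Rusc2 as not expressed by grafted cells over the days it covers. In the ileum C2 and Rusc2 were lowest in replicate 1, the ileal library with the highest macrophage sum. Cd4, the coreceptor of helper T cells that TIM-4+ gut macrophages also carry, had 0, 0 and 1.94 in the graft and 150.3, 663, 429 and 631 in the ileum (normalized reads), without overlap. Cd3e, a chain of the T cell receptor complex, had 0 in every graft library and 37.6, 36.2, 26.0 and 32.5 in the ileum. C2, a complement protease, was unread in the graft and at 82.7, 11.3, 93.6 and 142 normalized reads in the ileum, at least 11.5-fold higher. Rusc2 had 33.9, 39.3 and 60.1 in the graft and 82.7, 38.5, 107 and 104 in the ileum (normalized reads), with overlapping groups, and rose by 1.36 ± 0.55 (adjusted p = 0.039). This call was lost without graft replicate 1 or 3 and without ileal replicate 2, 3 or 4, with differences of 1.22, adjusted p = 0.12, 1.21, adjusted p = 0.13, 1.40, adjusted p = 0.051, 1.27, adjusted p = 0.077 and 1.15, adjusted p = 0.11.

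Complement genes rose in 14 of 21 (66.7%) and fell in 3 of 21 (14.3%), with a median of 5.70 (4.36 with genes at 0 at their bound). Relative to pan-leukocyte reads their sum was 8.56 to 9.73 per 100 in the graft and 138 to 161 in the ileum. C3, the central component, went the other way, with 6294, 4303 and 5107 in the graft and 601, 423, 179 and 284 in the ileum (normalized reads), and fell by 3.36 ± 0.44 (adjusted p = 8.5e-07). The receptor C3ar1 rose by 6.67 ± 0.84 (adjusted p = 5.2e-07) and factor B, from Cfb, by 4.36 ± 0.58 (adjusted p = 1.2e-06). Properdin, from Cfp, did not pass (-0.37 ± 0.64, adjusted p = 0.65), and its groups overlapped, though scaled to pan-leukocyte genes it was 1.24 (adjusted p = 0.03). C1s1, a protease of the C1 complex, and Serping1, its inhibitor, were unread in the graft. They were at 842, 63.4, 551 and 506 and at 1545, 86.0, 1635 and 1152 normalized reads in the ileum, lowest for both in replicate 1, the library with the lowest fibroblast sum.

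Genes for the uptake of dying cells rose in 12 of 21 (57.1%) and fell in 6 of 21 (28.6%), with a median of 1.85. Mfge8, which bridges phosphatidylserine to integrins, rose from 199 ± 24.6 to 1085 ± 235 normalized reads, a log2 difference of 2.90 ± 0.48 (adjusted p = 1.9e-05). Cd36, a scavenger receptor, rose from 10.4 ± 7.55 to 229.6 ± 86.9 normalized reads, a log2 difference of 4.88 ± 0.73 (adjusted p = 5.7e-06). Abca1, which exports cholesterol, had 4.84, 16.8 and 9.69 in the graft and 199, 405, 304 and 271 in the ileum (normalized reads) and rose by 5.30 ± 0.68 (adjusted p = 6.6e-07). Its relative Abca7 fell by 2.04 ± 0.30 (adjusted p = 3.8e-06), and Anxa1, an annexin that calms inflammation, by 2.49 ± 0.37 (adjusted p = 6.1e-06). Gas6, the ligand of Axl, had 1 graft read and 917, 559, 952 and 1186 normalized reads in the ileum. Scarb1, a receptor for high-density lipoprotein, fell by 1.47 ± 0.38 (adjusted p = 0.0021). With pan-leukocyte scaling these differences were Abca7 -0.00084 (adjusted p = 1), Anxa1 -0.32 (adjusted p = 0.69) and Scarb1 0.51 (adjusted p = 0.41), and rises and falls in the list were 15 and 0.

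**Figure D4:**
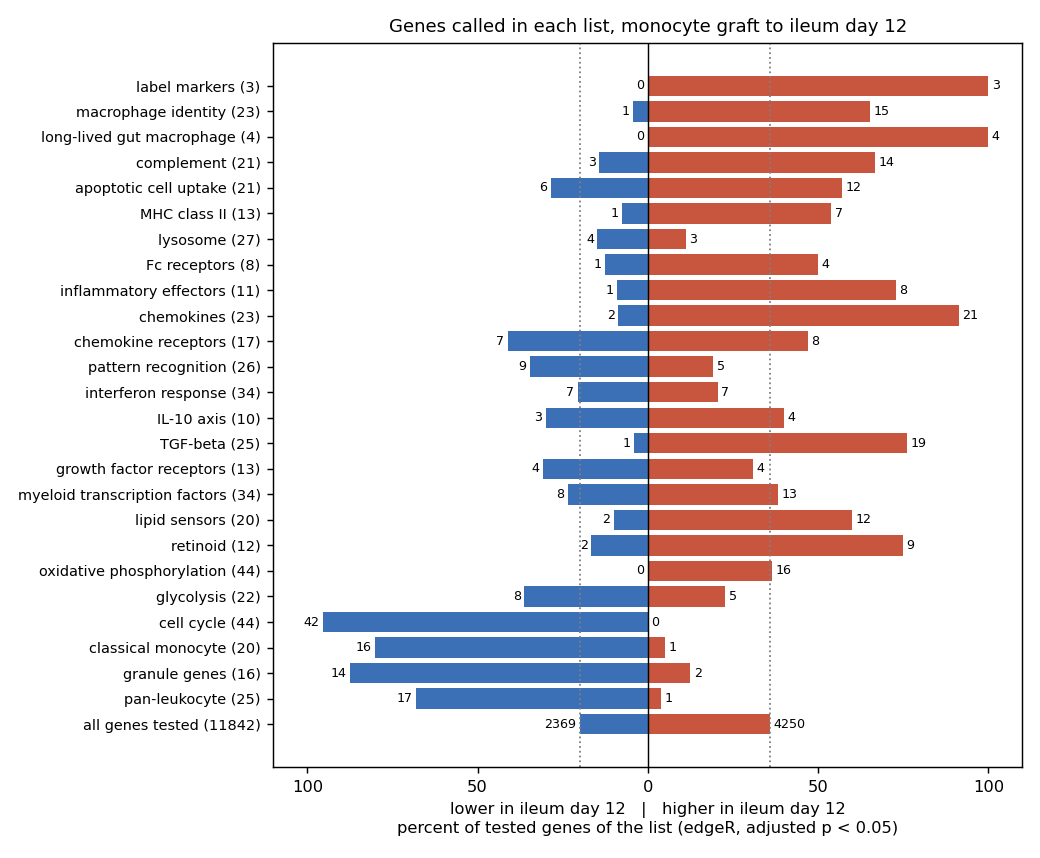
Percent of the tested genes of each list called higher (right) or lower (left) in ileum day 12 than in the graft by edgeR, with the number tested in brackets and all 11842 genes in the last bar. Granule, classical monocyte and cell cycle genes are mostly lower, chemokines, complement and TGF-β genes mostly higher, and pattern recognition and interferon genes lie on both sides. Scaled to pan-leukocyte genes, which is not drawn here, the medians of lysosome, IL-10 axis, interferon response, glycolysis and pan-leukocyte genes change sign. The median of all tested genes moves from 0.22 to 2.24.

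MHC class II genes rose in 7 of 13 (53.8%) and fell in 1, with a median of 1.68. H2-Aa and H2-Eb1, further chains of the class II molecules, rose by 4.50 ± 0.72 (adjusted p = 1.3e-05) and 5.69 ± 0.79 (adjusted p = 2.3e-06). Cd74, the invariant chain, had 741, 1196 and 2308 in the graft and 11091, 42977, 14063 and 20581 in the ileum (normalized reads), without overlap, and rose by 4.50 ± 0.72 (adjusted p = 1.4e-05). Ciita, the activator of these genes, rose from 132 ± 67.7 to 567 ± 392 normalized reads, a log2 difference of 2.60 ± 0.72 (adjusted p = 0.0035). In the graft the values of H2-Ab1, H2-Aa, H2-Eb1 and Cd74 were lowest in experiment 1 and highest in experiment 3. Parts of the peptide-loading machinery did not pass, as H2-DMa differed by 0.32 ± 0.54 (adjusted p = 0.64) and Ctss, a cathepsin that trims Cd74, by -0.54 ± 0.43 (adjusted p = 0.29). Without replicate 1 Ctss fell (-1.32, adjusted p = 0.0028). The difference of H2-DMa was -0.19 with the library totals, -0.22 without replicate 1 and 2.05 (adjusted p = 0.00054) scaled to pan-leukocyte genes. Rises and falls in the list were 7 and 3 without replicate 1 and 10 and 0 with that scaling. Per 100 pan-leukocyte reads the class II sum was 17.4, 20.0 and 27.3 in the graft and 235, 349, 389 and 451 in the ileum.

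Lysosome genes were mostly not called (3 rose and 4 fell of 27), and the median of -0.16 became 1.58 when scaled to pan-leukocyte genes. The counts depend on the setting, since rises and falls were 2 and 11 without ileal replicate 1, 2 and 11 with the library totals and 19 and 0 scaled to pan-leukocyte genes. Ctsl, the gene of cathepsin L, rose from 469 ± 34.2 to 2174 ± 1222 normalized reads, a log2 difference of 2.70 ± 0.34 (adjusted p = 5.6e-07). Lgmn, an asparagine-specific protease of endosomes, rose from 538 ± 224 to 3590.5 ± 1371 normalized reads, a log2 difference of 3.23 ± 0.62 (adjusted p = 0.00011). Among Fc receptors, which bind antibodies, 4 rose and 1 fell of 8, and Fcgr4 rose from 111 ± 52.7 to 766 ± 279 normalized reads, a log2 difference of 3.30 ± 0.66 (adjusted p = 0.00018).

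Genes of the IL-10 axis, which restrains gut macrophages, moved in both directions, with 4 rises and 3 falls among 10. Their median was -0.17, and 1.75 when scaled to pan-leukocyte genes. Rises and falls were 3 and 3 without ileal replicate 1, 3 and 5 with the library totals and 6 and 0 scaled to pan-leukocyte genes. Il10 itself was unread in the graft and at 52.6, 24.9, 54.6 and 82.8 normalized reads in the ileum, at least 7.50-fold higher (adjusted p = 9.3e-05). The study describes its expression in monocytes and engrafted cells as close to absent. Socs3, a feedback inhibitor downstream of the receptor, had 53.3, 109 and 105 in the graft and 812, 1220.3, 1359.8 and 924 in the ileum (normalized reads). Every ileal library was far above the graft, and the difference was 4.08 ± 0.34 (adjusted p = 1.4e-09). The receptor gene Il10ra did not pass (-0.95 ± 0.60, adjusted p = 0.18), though all ileal libraries were lower, at 1288, 926 and 1418 in the graft and 286, 663, 330.2 and 476 in the ileum, and it fell with the library totals (-1.46, adjusted p = 0.037). The kinase Tyk2 fell by 1.93 ± 0.28 (adjusted p = 3.3e-06), with a difference of 0.08 when scaled to pan-leukocyte genes.

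Inflammatory effectors rose in 8 of 11 tested (72.7%) and fell in 1 of 11 (9.09%), with a median of 3.68. The cytokine genes Il6, Il12a, Il12b, Il23a and Ifnb1 of the same list did not reach the filter and were not tested. The study describes engrafted macrophages as lacking Saa3, Lcn2, Il1b, Il6 and Tnf, unlike cells of mice with colitis. Cells of such mice are not among these samples. Il1b, the cytokine IL-1β, had 89.6, 157 and 63.9 in the graft and 3183, 11148, 2961 and 2738 in the ileum (normalized reads). All ileal libraries were above the graft, replicate 1 most, and the difference was 6.11 ± 0.78 (adjusted p = 6.3e-07). Its antagonist Il1rn rose by 3.68 ± 0.66 (adjusted p = 5.2e-05). Ptgs2, which makes prostaglandins, rose from 21.5 ± 27.6 to 822 ± 657 normalized reads, a log2 difference of 5.85 ± 1.08 (adjusted p = 7e-05). Nos2, which makes nitric oxide, was unread in the graft and at 195, 63.4, 93.6 and 73.9 normalized reads in the ileum. Saa3, an acute-phase protein, rose by 2.77 ± 0.74 (adjusted p = 0.0028). Tnf had 182, 166 and 145 in the graft and 169, 625, 83.2 and 217 in the ileum (normalized reads), with overlap. It did not pass (1.26 ± 0.59, adjusted p = 0.074), except without ileal replicate 3 (1.58, adjusted p = 0.024). Lcn2, which binds bacterial siderophores, was the fall (-2.21 ± 0.64, adjusted p = 0.0051). With pan-leukocyte scaling Lcn2 was -0.01 (adjusted p = 0.99) and Tnf 2.79 (adjusted p = 0.00024).

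Chemokines rose in 21 of 23 (91.3%) and fell in 2 of 23 (8.70%), with a median of 7.34 (4.65 with genes at 0 at their bound). Ccl8 was unread in the graft and at 537, 1148, 343 and 2082 normalized reads in the ileum, at least 143-fold higher. Ccl12 and Cxcl1, attractants of monocytes and of neutrophils, were also unread in the graft and at least 38.8-fold higher and at least 38.3-fold higher in the ileum. Cxcl16, an anchored chemokine, had 14.5, 14.03 and 23.3 in the graft and 1503, 3962, 1261 and 1488 in the ileum (normalized reads) and rose by 7.34 ± 0.84 (adjusted p = 1.3e-07). Cxcl9 and Cxcl10, which interferon induces, rose by 7.41 ± 1.16 (adjusted p = 1e-05) and 4.09 ± 0.93 (adjusted p = 0.00064), of which Cxcl10 did not pass an equal-variance test (2.59, adjusted p = 0.071). Ccl24, an attractant of eosinophils, rose from 8.17 ± 3.106 to 800.5 ± 1059 normalized reads, a log2 difference of 7.01 ± 1.34 (adjusted p = 0.00011). The falls were Ccl9, with 3008, 4129 and 5602 in the graft and 180.4, 181, 198 and 393 in the ileum (normalized reads) and a difference of -3.62 ± 0.48 (adjusted p = 1.3e-06), and Ccl6. Ccl6 fell by 1.60 ± 0.35 (adjusted p = 0.00044), and its difference was 0.36 when scaled to pan-leukocyte genes. Ccl25, which draws Ccr9+ lymphocytes to the small intestine and is made by its epithelium, rose from 36.2 ± 4.61 to 1912 ± 937 normalized reads, a log2 difference of 6.14 ± 0.74 (adjusted p = 3e-07). Ccl5 rose from 21.3 ± 4.20 to 482 ± 224 normalized reads, a log2 difference of 4.93 ± 1.02 (adjusted p = 0.00026).

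Receptors for homing moved in both directions. Ccr9, the receptor of Ccl25, was unread in the graft and at 248, 278, 312 and 631 normalized reads in the ileum, at least 51.3-fold higher (adjusted p = 2.5e-05). Itgb7, a chain of the gut-homing integrin α4β7, had 5219, 4138 and 4702 in the graft and 113, 67.9, 169 and 262 in the ileum (normalized reads). No ileal library reached the graft, and the difference was -4.42 ± 0.72 (adjusted p = 1.6e-05). Selplg, the ligand of selectins, fell by 3.19 ± 0.51 (adjusted p = 1.2e-05), and Itgb2, the common chain of leukocyte integrins, by 2.26 ± 0.53 (adjusted p = 0.00088). Itgb2 was -0.62 (adjusted p = 0.18) when scaled to pan-leukocyte genes. Ccr1 rose by 1.80 ± 0.66 (adjusted p = 0.025) with overlapping groups, but not without ileal replicate 1 (1.00, adjusted p = 0.17) or without graft replicate 2 (1.73, adjusted p = 0.075) or 3 (1.46, adjusted p = 0.12). In all, 8 of these 17 receptor and adhesion genes rose and 7 fell, and the median was 0.86.

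Sensors of microbes fell in 9 of 26 (34.6%) and rose in 5 of 26 (19.2%). Their median was 0.18 with TMM and -0.30 with the library totals. Tlr12, a receptor for profilin of protozoa, had 3 graft reads in all and 774, 2409, 1048 and 709.8 normalized reads in the ileum (adjusted p = 6.8e-06). Tlr7, the receptor for single-stranded RNA, rose by 1.71 ± 0.60 (adjusted p = 0.018) with overlapping groups, but not without ileal replicate 1 (1.19, adjusted p = 0.088) or without graft replicate 2 (1.59, adjusted p = 0.068) or 3 (1.53, adjusted p = 0.076). Tlr2, the receptor for bacterial lipoproteins, had 736, 876 and 727 in the graft and 52.6, 67.9, 109 and 170.0 in the ileum (normalized reads), without overlap, and fell by 2.42 ± 0.38 (adjusted p = 1.2e-05). Irak3, which damps Toll-like receptor signals, fell by 2.39 ± 0.45 (adjusted p = 9.6e-05). The adaptor Myd88 fell by 1.06 ± 0.31 (adjusted p = 0.0054), and none of these 3 falls passed when scaled to pan-leukocyte genes, with differences of Tlr2 -0.37 (adjusted p = 0.59), Irak3 -0.39 (adjusted p = 0.62) and Myd88 0.80 (adjusted p = 0.15). Rises and falls in the list were 3 and 10 without ileal replicate 1, 2 and 11 with the library totals and 15 and 0 scaled to pan-leukocyte genes.

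Interferon response genes held 7 rises and 7 falls among 34 and a median of -0.34, or 1.45 when scaled to pan-leukocyte genes. These counts depend on the setting too, since rises and falls were 5 and 11 without ileal replicate 1, 6 and 14 with the library totals and 19 and 0 scaled to pan-leukocyte genes. Isg15, a ubiquitin-like protein, rose from 222 ± 17.0 to 1226 ± 1313 normalized reads, a log2 difference of 2.97 ± 0.71 (adjusted p = 0.0011). Replicate 1 was far above the other ileal libraries, at 3192 normalized reads, and it did not pass an equal-variance test (1.78, adjusted p = 0.085). Irf1, a factor of interferon-γ responses, rose from 753 ± 66.9 to 1433 ± 215 normalized reads, a log2 difference of 1.39 ± 0.33 (adjusted p = 0.0011). The study describes engrafted macrophages, set beside resident ones, as lacking Irf1. Mx1, an antiviral GTPase, fell from 608 ± 129.9 to 58.6 ± 41.3 normalized reads, a log2 difference of -2.87 ± 0.59 (adjusted p = 0.00022), and scaled to pan-leukocyte genes it was -1.19 (adjusted p = 0.11).

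Transcription factors of the myeloid lineage rose in 13 of 34 (38.2%) and fell in 8 of 34 (23.5%), with a median of 0.41 and, with the library totals, -0.06. Rises and falls were 13 and 10 without ileal replicate 1, 13 and 13 with the library totals and 23 and 0 scaled to pan-leukocyte genes. Maf, a factor of macrophage differentiation, had 43.6, 67.4 and 85.3 in the graft and 331, 426, 465 and 906 in the ileum (normalized reads) and rose by 3.54 ± 0.52 (adjusted p = 4.2e-06). The groups did not overlap. Egr1, an immediate early gene, had 19.4, 25.3 and 11.6 in the graft and 2958, 6095, 4324 and 3234 in the ileum (normalized reads) and rose by 8.28 ± 0.65 (adjusted p = 4.1e-10). The handling of tissue and BM also differed between the groups, and its part in this rise was not tested. Id3, an inhibitor of helix-loop-helix factors, rose by 5.74 ± 0.49 (adjusted p = 1.9e-09), and Bhlhe40 by 4.67 ± 0.53 (adjusted p = 1.2e-07). Klf13 had 7273, 8671 and 9395 in the graft and 936, 985, 1227 and 959.6 in the ileum (normalized reads) and fell by 2.56 ± 0.22 (adjusted p = 1.6e-09). Irf5, a driver of inflammatory genes, fell by 2.73 ± 0.62 (adjusted p = 0.00061), and Cebpb by 1.81 ± 0.58 (adjusted p = 0.0099). Cebpe, a factor of granule formation, fell by 3.49 ± 0.56 (adjusted p = 2.2e-05). None of these 4 falls passed when scaled to pan-leukocyte genes, with differences of Klf13 -0.51 (adjusted p = 0.44), Irf5 -0.98 (adjusted p = 0.069), Cebpb -0.0072 (adjusted p = 0.99) and Cebpe -1.35 (adjusted p = 0.11). Spi1, the gene of PU.1, did not pass (-1.11 ± 0.56, adjusted p = 0.096), with 3332, 2700.3 and 2699 in the graft and 556, 2051, 619 and 575 in the ileum (normalized reads) and replicate 1 the highest in the ileum. It fell without replicate 1 (-1.87, adjusted p = 0.0059), with the library totals (-1.61, adjusted p = 0.019) and with the transfer experiment as a block (-1.42, adjusted p = 0.024). The falls of Irf8 (-1.02 ± 0.38, adjusted p = 0.025) and Zeb2 (-1.23 ± 0.43, adjusted p = 0.019) became differences of 0.82 and 0.68 when scaled to pan-leukocyte genes. Both calls were lost without graft replicate 2 (Irf8 -1.02, adjusted p = 0.052, Zeb2 -1.17, adjusted p = 0.052), ileal replicate 2 (Irf8 -0.94, adjusted p = 0.062, Zeb2 -1.09, adjusted p = 0.056) or ileal replicate 3 (Irf8 -0.88, adjusted p = 0.074, Zeb2 -1.13, adjusted p = 0.051), and that of Irf8 also without ileal replicate 4 (-0.91, adjusted p = 0.068).

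TGF-β signalling genes rose in 19 of 25 (76.0%) and fell in 1 of 25 (4.00%), with a median of 2.23. Tgfbr2, the receptor that binds the ligand, had 145, 213 and 252 in the graft and 797, 643, 728 and 770.4 in the ileum (normalized reads), with every ileal library above the graft, and rose by 2.33 ± 0.39 (adjusted p = 2.3e-05). The feedback inhibitors Smad7 and Skil rose by 2.52 ± 0.28 (adjusted p = 8.9e-08) and 2.72 ± 0.33 (adjusted p = 3.6e-07). Eng, a coreceptor that endothelium carries at high levels, rose by 3.61 ± 0.76 (adjusted p = 0.00032). The ligand Tgfb1 did not pass (-0.31 ± 0.55, adjusted p = 0.66), with 1061, 1272 and 1077 in the graft and 282, 1555, 294 and 413 in the ileum (normalized reads) and replicate 1 the only ileal library above the graft. Without it Tgfb1 fell (-1.30, adjusted p = 0.025), and scaled to pan-leukocyte genes it was 1.18 (adjusted p = 0.027).

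Lipid sensor genes rose in 12 of 20 (60.0%) and fell in 2 of 20 (10.0%). Nr1h3, the gene of the oxysterol receptor LXRα, had 14.5, 2.81 and 17.4 in the graft and 616, 1048, 333 and 414 in the ileum (normalized reads), without overlap, and rose by 6.07 ± 0.64 (adjusted p = 3.7e-08). Fabp4, a fatty acid carrier, rose from 9.36 ± 12.3 to 1744 ± 891 normalized reads, a log2 difference of 7.77 ± 1.03 (adjusted p = 1.2e-06). In the retinoid list 9 rose and 2 fell of 12. Rara, a retinoic acid receptor, fell from 1815 ± 177 to 267 ± 71.9 normalized reads, a log2 difference of -2.30 ± 0.32 (adjusted p = 2.4e-06). Cyp26b1, which degrades retinoic acid, was unread in the graft and at least 42.5-fold higher in the ileum. Of the growth factor receptors and their ligands, 4 rose and 4 fell of 13. Il6ra and Csf3r, receptors of IL-6 and of granulocyte colony-stimulating factor, fell by 2.40 ± 0.43 (adjusted p = 5.6e-05) and 2.48 ± 0.51 (adjusted p = 0.00023), and Csf1, the ligand of Csf1r, rose by 3.82 ± 0.55 (adjusted p = 3.7e-06). The falls of Rara, Il6ra and Csf3r did not pass when scaled to pan-leukocyte genes, at Rara -0.17 (adjusted p = 0.78), Il6ra -0.55 (adjusted p = 0.25) and Csf3r -0.82 (adjusted p = 0.17).

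Gut patterning factors, which epithelium and mesenchyme use, rose in all 20 tested. Hnf4a and Cdx1, regulators of enterocytes, were unread in the graft and at least 115-fold higher and at least 86.7-fold higher in the ileum. All 20 also rose with the library totals, scaled to pan-leukocyte genes and without ileal replicate 1. They stand beside the epithelial sums given above, whose part in them was not tested. Genes of oxidative phosphorylation rose in 16 of 44 (36.4%) and fell in 0 of 44 (0%), with a median of 0.48, and those of glycolysis rose in 5 of 22 (22.7%) and fell in 8 of 22 (36.4%), with a median of -0.19. Rises and falls in oxidative phosphorylation were 4 and 0 with the library totals (median 0.02) and 44 and 0 scaled to pan-leukocyte genes (median 2.56), and those in glycolysis 3 and 10 and 12 and 0. Pan-leukocyte genes rose in 1 of 25 (4.00%) and fell in 17 of 25 (68.0%), with a median of -1.50. Coro1a and Arhgdib, regulators of the leukocyte cytoskeleton, fell by 2.90 ± 0.57 (adjusted p = 0.00016) and 3.25 ± 0.49 (adjusted p = 7e-06).

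**Figure D5:**
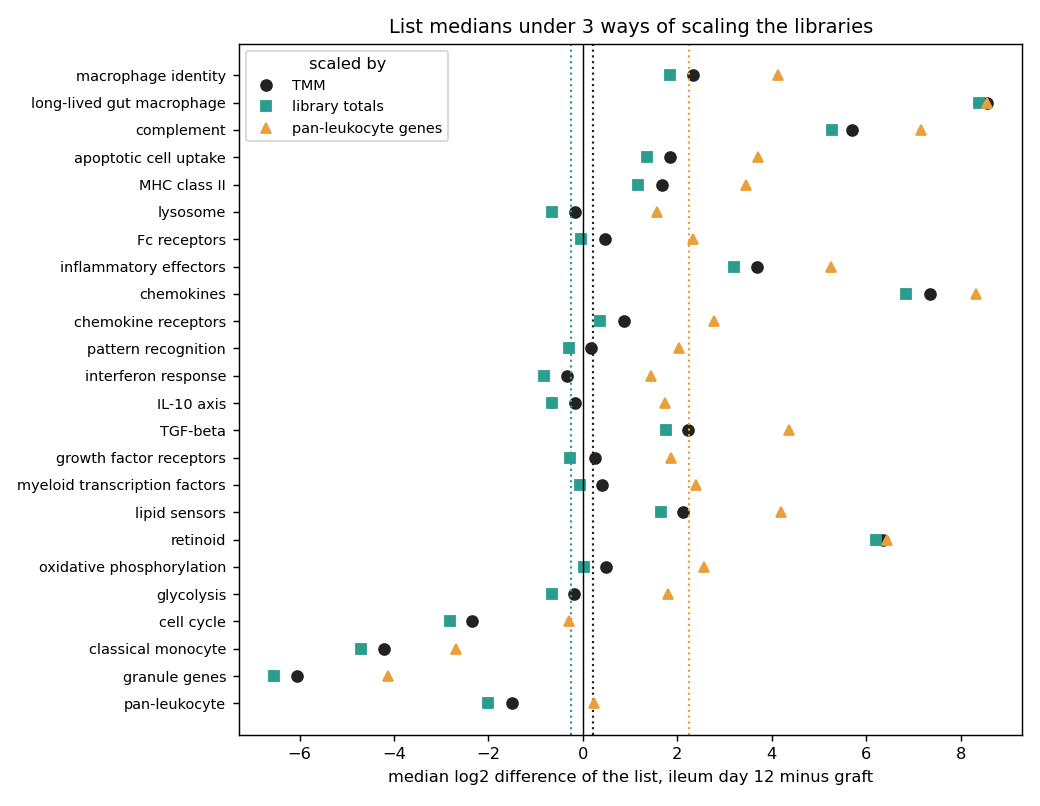
Median log2 difference, ileum day 12 minus graft, of each gene list with the libraries scaled by TMM, by the library totals and by the pan-leukocyte genes. The median of all genes moves from -0.25 (totals) and 0.22 (TMM) to 2.24 (pan-leukocyte genes), the medians of granule, classical monocyte and cell cycle genes stay below 0 in all 3, and those of complement, chemokines and macrophage identity stay above 0.

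Ileal cells of day 12 were then set against ileal cells of days 4 and 8. These comparisons use the same day 12 libraries as the comparison with the graft. From day 8 to day 12 edgeR called 0 genes higher (0%) and 0 lower (0%). At an unadjusted p below 0.05 there were 796 genes by edgeR and 909 by DESeq2, which also called 0 after adjustment. From day 4 to day 12, 33 genes were higher (0.279%) and 239 lower (2.02%). These calls rest on few libraries, since 0 genes passed without day 12 replicate 1, 3 or 4 or without day 4 replicate 2 or 3, and 333 higher and 809 lower passed without day 4 replicate 1. With the transfer experiment as a block edgeR called 0 genes, with 1535 at an unadjusted p below 0.05, against 2100 without it. The day 4 libraries split by experiment, with epithelial sums of 164039 and 157171 normalized reads in experiment 1 and 42384 and 52344 in experiment 2, and B and plasma cell sums of 4795 and 3428 against 136253 and 75174. Axl was among the genes higher on day 12 than on day 4 (1.32 ± 0.35, adjusted p = 0.044), a call absent wherever 0 genes passed. Timd4 (2.64 ± 0.85, adjusted p = 0.099) and C1qa (0.58 ± 0.57, adjusted p = 0.64) did not pass from day 4.

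Ileal and colonic progeny of day 12 were compared directly, again with the same ileal libraries. In the ileum 2038 genes (17.2%) were higher and 1808 (15.3%) lower than in the colon. C1qa was read at 2908, 7735, 2112 and 3112 normalized reads in the 4 colonic libraries, below every ileal one, and was higher in the ileum by 2.39 ± 0.60 (adjusted p = 0.0044). Axl, at 379.5, 526, 228 and 279 in the colon, was higher by 1.51 ± 0.34 (adjusted p = 0.0021). Timd4, at 9.73, 112, 7.31 and 21.4, did not pass (1.95 ± 0.75, adjusted p = 0.051). The colonic libraries held more epithelial reads, with sums of 132800.0 to 184565 normalized reads, and fewer pan-leukocyte reads, with sums of 4249 to 13689. Scaled to pan-leukocyte genes, the difference of C1qa between the segments was 0.04 (adjusted p = 0.94) and that of Axl -0.87 (adjusted p = 0.087). Under this scaling 132 genes were higher and 9800 lower in the ileum. The median log2 difference of all tested genes, ileum minus colon, was -2.30 so scaled and 0.014 with TMM.

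The largest rises over the colon were the defensin genes Gm15292, Defa21, Defa22, Defa20 and Defa2, whose reads may again be shared. Gm15292 had 1.95, 0, 2.44 and 1.65 normalized reads in the colon and 707, 550.1, 239 and 405 in the ileum. Defa21 had 3.89, 174, 155 and 254 in the colon and 47063, 29287, 16471 and 37160.0 in the ileum. The largest falls were Insl5, a hormone of colonic endocrine cells, Fut2, Fxyd4, Sycn and Tnni1. Insl5 had 921, 168, 380.1 and 999 normalized reads in the colon and 18.8, 2.26, 15.6 and 13.3 in the ileum, and Fut2, a fucosyltransferase of epithelium, had 424, 189.9, 280.2 and 115 and 22.6, 9.06, 0 and 0. Ccr9, at 1.95, 15.6, 7.31 and 14.8 normalized reads in the colon, was higher in the ileum by 5.38 ± 0.96 (adjusted p = 0.00058). Of 23 macrophage identity genes tested 16 were higher and 0 lower in the ileum. Their median was 1.42, and -0.94 when scaled to pan-leukocyte genes. Of 13 MHC class II genes tested 11 were higher and 0 lower, with a median of 1.88 and, so scaled, -0.39. Both scaled medians lay above the -2.30 of all tested genes, and both TMM medians above their 0.014. Per 100 pan-leukocyte reads the class II sum was 315 to 611 in the colon and 235 to 451 in the ileum, which overlap.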

How the data were processed

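RNA of the 7 libraries was read by a MARS-seq derivative primed on poly(A). According to the submitters' processing notes and the methods of the study, the authors demultiplexed with bcl2fastq, aligned with HISAT 0.1.6 to mm9 and counted uniquely aligned reads over exons with HOMER. The deposited values are raw counts per gene. Whether duplicate reads were collapsed is not given in the sources used here. From these counts, 11842 of 24411 genes, those reaching 50 normalized reads in 3 or more libraries, were kept and fitted over 25 libraries in 7 groups, without colon day 8 replicate 1, with TMM and edgeR 4.0.16 (quasi-likelihood test, R 4.3.3). Other settings used DESeq2 1.42.0. The study itself used Student's test. No pair of these libraries agreed within sampling noise.

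Genes were named by rule as the 3 marker genes and the 12 largest changes each way (5 for other comparisons) with an adjusted p below 0.05, a mean of at least 200 in the higher group and no overlap. Further examples came from 40 gene lists, after their values had been seen. The comparison and the lists were chosen with earlier results of these data known. Levels, summed list levels and figures were computed in Python 3.11.15 with pandas 2.3.3. Another table, of 6 libraries, was not used here. Gene positions are on mm9. C1qa has no promoter shown. Some genes that met the rule or belong to the lists are not reported here. Alternatives were other scalings, filters and tests, the transfer experiment as a block, and each library left out.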

Additional observations from a re-analysis of the deposited data

Results flagged for a closer look

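For 30 of the 180 genes of the text, 1 ileal library of day 12 lay far from the other 3 by Dixon's test at 95%, and in 22 of them it was replicate 1. For independent, normally distributed values chance alone gives such a library in about 1 in 20 groups. Here the test was run on unlogged normalized reads, and many of the genes stand apart in the same library. The 30 of 180 therefore cannot be set against that rate. Replicate 1, the library with the highest macrophage and pan-leukocyte sums, stood above the others in normalized reads for C1qa (34542), Ptprc (3052), Csf1r (17974), Itgax (3387), Cd68 (2182), H2-DMa (4609), Ctss (15660.0), Il1b (11148), Ptgs2 (1802), Cxcl16 (3962), Ccr1 (3095), Spi1 (2051), Tgfb1 (1555), Isg15 (3192), Skil (584), Lgmn (5646), Arhgdib (2078), Nr4a3 (858), Itgb2 (1510.1), Ccl24 (2375) and AI839979 (13.6). It was the only one at 0 for Tnni1. Replicate 4, which had the most B and plasma cell reads, was the highest for Ccl9 (393), Ccr9 (631), Jchain (138091), Ctsg (1.48) and Kcnk12 (1.48) and the lowest for Irf1 (1115). Replicate 3 was the highest for Klf13 (1227) and replicate 2 for Adora2b (11.3). Ctsg, Kcnk12, AI839979 and Adora2b were at a few reads or none in the ileum.

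Of the 26 genes named for the comparison with the graft, 14 also differed between ileum and colon on day 12, where the segments hold progeny of the same graft, and all 14 were higher in the ileum (edgeR, adjusted p below 0.05, TMM). Of all genes tested, 17.2% were higher and 15.3% lower in the ileum than in the colon. Apart from C1qa and Axl, the 14 were picked as the largest rises in these same ileal libraries. Their direction here is therefore not independent of that choice. C1qa was higher by 2.39 and Axl by 1.51 on the log2 scale, differences that became 0.04 and -0.87 when scaled to pan-leukocyte genes. So scaled, the median of all tested genes was -2.30. The epithelial genes were higher by Reg3b 4.49, Defa31 7.01, Defa23 7.01, Fabp6 6.39, Defa24 6.81, Defa32 7.21, Defa33 7.21, Defa6 6.94, Defa17 6.90, Defa3 6.93, Defa30 6.53 and Gm14851 6.59.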

How the results depend on the processing

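Over the 179 genes of the text that were tested, 2857 of 2984 values under other settings kept direction and side of the threshold, 66 lost the call, 31 gained one and 30 changed sign. Of the 161 called genes, 37 lost the call in at least 1 setting and 6 changed sign, and 135 of 176 counts stayed within 1.5 times. Calls lost in the equal-variance test included those of Cst7, Serpinb1a, Cd163, Rusc2, Ccr1, Cxcl10, Tlr7, Isg15 and Nr4a3. The causes were not tested.

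From graft to ileum, counts higher and lower were 2825 and 4060 with an equal-variance test per gene, 3291 and 3960 with library totals, 9246 and 128 scaled to pan-leukocyte genes, and 2709 and 1726 with a filter of 200 normalized reads, which tests fewer genes. At least 2-fold they were 1949 and 2185, 3116 and 2875, 9246 and 128, and 2242 and 1092. Leaving out 1 library gave 3785 to 4107 higher and 1930 to 2414 lower, and at least 2-fold 3555 to 3720 and 1368 to 1690. With the transfer experiment as replicate block they were 4270 and 2395. Graft and ileal day 12 libraries of 1 experiment did not deviate together (correlations 0.002, 0.004, -0.028 and 0.019), while the ileal libraries of day 4 split by experiment. From graft to ileum, among the genes of the text, the block added calls of Ptprc, Spi1 and Fxyd4 and ended none.

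From day 4 to day 12, counts were 130 and 524 with DESeq2, 0 and 0 with the groups alone, with the equal-variance test and with the block, 21 higher with library totals, 0 higher scaled to pan-leukocyte genes, 8 and 130 with colon day 8 replicate 1, and 0 to 333 and 0 to 809 without 1 library. They were 333 and 809 without day 4 replicate 1, 72 and 596 without day 4 replicate 4, and 0 without day 12 replicate 1, 3 or 4 or day 4 replicate 2 or 3. From colon to ileum, 917 were higher with the equal-variance test, 132 higher and 9800 lower scaled to pan-leukocyte genes, and 1493 to 1934 and 1382 to 1735 without 1 library.

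Scaled to pan-leukocyte genes, these log2 differences changed sign: Ptprc 0.46, Ly6c1 1.42, Fcgr1 1.65, Plac8 1.47, Adgre1 1.73, Cd68 1.05, Cfp 1.24, Scarb1 0.51, Ctss 1.06, Il10ra 0.89, Tyk2 0.081, Ccl6 0.36, Myd88 0.80, Spi1 0.52, Irf8 0.82, Zeb2 0.68, Tgfb1 1.18 and Lyz1 1.54. With the filter of 200 they were Fcgr1 0.033 and Adgre1 0.036. Without graft replicate 2 they were Fcgr1 0.023 and Adgre1 0.19, without ileal replicate 2 Fcgr1 0.18 and Adgre1 0.10, and without ileal replicate 3 Fcgr1 0.12, Adgre1 0.13 and Lyz1 0.13. H2-DMa was -0.32 with the equal-variance test, -0.19 with library totals and -0.22 without ileal replicate 1. Over all libraries left out in turn the ranges were -0.56 to 0.18 for Fcgr1, -0.36 to 0.19 for Adgre1, -0.22 to 0.49 for H2-DMa and -0.65 to 0.13 for Lyz1. Genes under 3 counts in a library are below what its depth resolves.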

Other observations

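Further lists of epithelial cells were higher in the ileum than in the graft. Genes of small intestinal enterocytes, the absorptive cells of the villi, rose in 24 of 24 tested, with sums of 168 to 202 normalized reads in the graft and 51068 to 159719 in the ileum. Goblet cell genes rose in 9 of 10, and the fall was Ccl6, which myeloid cells also use. Muc2, the main mucin of goblet cells, had 0, 8.42 and 1.94 in the graft and 2146, 1356, 2678 and 1060.2 in the ileum (normalized reads), and Tff3, a trefoil peptide of the mucus, 2.42, 2.81 and 0 in the graft and 6942, 3183, 13481 and 5932 in the ileum. Enteroendocrine genes rose in 7 of 8. Of dendritic cell genes 3 rose and 1 fell among 6, with Flt3, the receptor of dendritic cell precursors, at 67.8, 101 and 147 in the graft and 0, 2.26, 0 and 4.44 in the ileum (normalized reads). Of 11 mast cell and eosinophil genes only 2 could be tested, and these rose. In the ileum 7 of the 11 were at 0 in every library. Of 7 erythroid genes, 0 rose and 0 fell (edgeR).

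In the colon the interferon response genes were lower than in the ileum, with 27 higher and 1 lower in the ileum of 34. Their median log2 difference was 2.03, and -0.50 when scaled to pan-leukocyte genes. The median of all tested genes was 0.014 with TMM and -2.30 so scaled. Genes of oxidative phosphorylation had 0 higher and 41 lower in the ileum of 44, with a median of -0.97, and pan-leukocyte genes 25 and 0 of 25, with a median of 2.50.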
